A study of Mus musculus with 9 samples.

Results

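The genes described here are the Wnt ligands, the receptors and co-receptors that bind them, and the R-spondins with their receptors and ubiquitin ligases. They also include the secreted Wnt antagonists, the Axins, and the TCF/LEF factors of the nuclear end of the pathway. They were chosen by gene symbol, and the rule used no measured value: it took every row of the count table named as a Wnt, a Frizzled other than *Fzd6*, *Sfrp1* to *Sfrp5*, *Dkk1* to *Dkk4*, *Rspo1* to *Rspo4*, *Lgr4* to *Lgr6*, *Lrp5*, *Lrp6*, *Axin1*, *Axin2*, *Lef1*, *Tcf7*, *Tcf7l1*, *Tcf7l2*, *Znrf3*, *Rnf43*, *Wif1* or *Notum*. The rule found 55 of the 55228 genes in the table, namely 19 ligands, 11 receptors, 9 genes of the R-spondin module, 10 antagonists and 6 nuclear factors and Axins.

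The study asked what the planar cell polarity protein VANGL2 does in the nucleus of mammary epithelial cells. HC11 is an immortalized mouse mammary epithelial line that can be induced to make milk proteins. Polyadenylated RNA was sequenced from 9 cultures, 3 of the parental line (*WT*) and 3 of each of a pair of edited lines, *KD1* and *KD2*. All cultures were undifferentiated, grown to near confluence in medium with serum, insulin and epidermal growth factor.

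*WT* cultures carried unedited *Vangl2*. *KD1* and *KD2* were made with different *Vangl2* guide RNAs, delivered with Cas9 and a repair template that places stop codons in every frame, and each was grown up from a single colony. The labels call both lines knockouts and the paper calls them knockdowns, and the latter name is used here. Because each edited line is 1 clone, an effect of the edit and a difference between clones cannot be told apart, and p-values measure only the spread between cultures of a line.

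Wnt proteins are lipid-modified secreted ligands that bind Frizzled receptors together with the co-receptors LRP5 and LRP6. In the canonical branch the signal stops the Axin-based complex from marking beta-catenin for destruction, and beta-catenin then works with TCF/LEF factors on target genes. Frizzleds are themselves removed from the surface by the ubiquitin ligases ZNRF3 and RNF43, which R-spondins restrain through LGR4, LGR5 and LGR6. In the mammary gland Wnt signals are known for sustaining basal stem cells and for side branching in pregnancy, and VANGL2 belongs to the beta-catenin-independent planar cell polarity branch that shares the Frizzled receptors.

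Total counts ranged from 19231428 to 28360592 per culture. *Vangl2* itself had 66, 99 and 86 counts in *WT*, 75, 48 and 69 in *KD1* and 90, 118 and 90 in *KD2*, a fall in *KD1* (log2 fold change -0.63 ± 0.17, adjusted p = 0.0058) and no detected difference in *KD2* (log2 fold change 0.05 ± 0.16, adjusted p = 0.81). Stop codons in the transcript need not change its amount, so these counts do not check the edit. By immunoblot the paper reports VANGL2 protein as nearly absent from *KD1* and strongly reduced in *KD2*. The epithelial markers *Krt5*, *Krt14*, *Epcam* and *Cdh1* were abundant in every culture, whereas *Krt19* was at 0 in all 9. The summed epithelial markers, 8 genes, lay at 4881 to 5462 CPM (counts relative to each culture's library size after TMM scaling) in *WT* cultures, 5538 to 5678 CPM in *KD1* and 2942 to 3645 CPM in *KD2*. The markers did not move together in *KD2*. *Krt5*, *Krt14*, *Epcam* and *Cdh1* fell (log2 fold change -0.96, -0.90, -0.36 and -0.69), whereas *Krt8* rose (0.765). *Krt18* and *Krt7* did not differ detectably from *WT* there (log2 fold change 0.13 and 0.04). The summed fibroblast markers, 5 genes of which 3 could be tested, lay at 13.4 to 19.0 CPM in *WT* cultures, 7.99 to 9.97 CPM in *KD1* and 23.6 to 24.6 CPM in *KD2*, and *Col1a2* was at 0 counts in every *KD1* culture. These markers too did not move together. *Col1a1* fell in *KD1* (log2 fold change -3.625) and in *KD2* (-0.705). *Col1a2* and *Pdgfra* rose in *KD2* (1.38 and 1.04), and *Pdgfra* did not differ detectably in *KD1* (0.07). The part of these markers in the results below was not tested. Summed leukocyte markers lay at 2.98 to 5.89 CPM in *WT* cultures, 6.82 to 8.30 CPM in *KD1* and 3.52 to 4.62 CPM in *KD2*, nearly all of it *Cd68*, with *Ptprc* and *Cd3e* at 0 to 3 counts. Endothelial markers summed to 2.00 to 2.49 CPM in *WT* cultures, 4.87 to 5.47 CPM in *KD1* and 1.33 to 1.82 CPM in *KD2*, mostly *Pecam1* in *WT* and *KD1*, with *Kdr* at 0 to 2 counts, and *Cdh5* had 0, 0 and 1 counts in *WT*, 5, 7 and 5 in *KD1* and 22, 24 and 7 in *KD2*. Adipocyte markers summed to 0.0977 to 0.256 CPM in *WT* cultures, 2.08 to 2.90 CPM in *KD1* and 0.0492 to 0.566 CPM in *KD2*, mostly *Fabp4* in *KD1*, with *Adipoq* and *Plin1* at 0 or 1 count. The part of these genes too was not tested. Culture 3 of *KD2* stood apart from the remaining *KD2* cultures, with a chi-square per degree of freedom of 17.4 and 22.1 against them, where they differed by 1.74 from each other, and culture 1 of *WT* differed from the other *WT* cultures by 13.1 and 10.7.

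Sequences are shown for 4 of the genes, as the 250 bases before the RefSeq start, because beta-catenin acts through TCF/LEF factors at such sites and several of these genes are known feedback targets. The windows come from a table of RefSeq promoters on GRCm38.p6, in which 36 of the 55 genes were matched, and windows of the other genes were not analysed here. Where a gene had more than 1 RefSeq start, only the most upstream was used. Of the 4 shown, *Wnt11* had 2 starts and the others 1. The TCF/LEF core was searched on both strands as CTTTGNN, where each N had to be A or T, and capitals mark a match. *Fzd7*, the most abundant of the Frizzleds described here, and *Wnt11*, a ligand of the planar polarity branch, are shown because they held a match, *Axin2* because it is the usual feedback reporter of the pathway, and *Lgr6* because it fell most among the receptors of the R-spondin module. The windows are chr1:59481897-59482146 on the plus strand for *Fzd7*, chr7:98834862-98835111 on the plus strand for *Wnt11*, chr11:108920099-108920348 on the plus strand for *Axin2* and chr1:135105277-135105526 on the minus strand for *Lgr6*.
Fzd7: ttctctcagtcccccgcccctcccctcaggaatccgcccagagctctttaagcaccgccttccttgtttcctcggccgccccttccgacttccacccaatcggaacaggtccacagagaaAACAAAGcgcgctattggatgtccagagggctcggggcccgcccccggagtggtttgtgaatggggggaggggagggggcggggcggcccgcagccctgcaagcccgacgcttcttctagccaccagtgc
Wnt11: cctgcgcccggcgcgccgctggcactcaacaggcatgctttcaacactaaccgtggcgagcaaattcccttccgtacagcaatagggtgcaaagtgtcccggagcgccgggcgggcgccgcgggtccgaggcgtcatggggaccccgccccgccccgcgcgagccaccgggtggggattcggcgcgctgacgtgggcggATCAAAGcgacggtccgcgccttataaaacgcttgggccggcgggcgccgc
Axin2: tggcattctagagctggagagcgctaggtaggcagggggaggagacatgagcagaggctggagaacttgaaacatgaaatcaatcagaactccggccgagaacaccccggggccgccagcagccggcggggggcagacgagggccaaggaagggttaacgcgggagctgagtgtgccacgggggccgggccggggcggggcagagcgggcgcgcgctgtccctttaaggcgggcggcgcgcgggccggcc
Lgr6: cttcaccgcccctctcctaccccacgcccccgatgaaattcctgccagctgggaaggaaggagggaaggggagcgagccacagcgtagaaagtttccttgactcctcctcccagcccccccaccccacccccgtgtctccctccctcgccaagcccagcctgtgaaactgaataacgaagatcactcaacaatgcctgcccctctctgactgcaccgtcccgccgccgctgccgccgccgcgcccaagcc
The match lay 123 bases before the start in *Fzd7* and 44 bases before it in *Wnt11*, on the opposite strand in both. Among the 36 genes, 3 held the TCF/LEF letters (8.33%), *Dkk1* being the other, against 14.8% of the 32851 windows of this length in the RefSeq table. The 36 are 1 window per gene, whereas all windows include every start listed for a gene. The STAT palindrome TTCNNNGAA, sought because the study turned on STAT5, was in 0 of the 36 and in 7.02% of all windows. The windows held a median of 22.5 CpG dinucleotides and a GC content of 69.4%, against 6 and 52.4% over all windows. Absence of these letters from 250 bases says nothing of binding elsewhere.

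Of the 55 genes, 30 passed the filter on low counts and were tested by edgeR's quasi-likelihood test, with p-values adjusted over all 15253 genes tested. The other 25 were too low to test, and 18 genes never exceeded 3 counts in any culture, among them *Dkk1*, *Dkk2*, *Fzd10*, *Wnt2* and *Wnt5a*, which were at 0 in all 9. A gene is called where the adjusted p was under 0.05 and the absolute log2 fold change above 1, that is a change of more than 2-fold, and is said to have risen or fallen where the adjusted p was under 0.05.

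In the comparison of *KD1* with *WT*, 1 of the 30 tested Wnt genes was called up (3.33%, beside 9.34% of all genes tested) and 8 were called down (26.7%, beside 7.49%). In *KD2*, 4 were called up (13.3%, beside 14.5%) and 6 down (20%, beside 6.71%). Set directly against *KD1*, *KD2* had 10 called up (33.3%, beside 14.7%) and 5 down (16.7%, beside 8.58%). Without culture 3 of *KD2* these became 4 and 6 in *KD2*, with *Rnf43* lost and *Wnt6* added, and 9 and 5 in the direct comparison, with *Wnt6* lost. By adjusted p alone, *KD1* had 3 that rose and 16 that fell (background 26.9% and 30%), and *KD2* had 9 that rose and 15 that fell (background 34% and 33.3%). The direct comparison had 17 above and 7 below *KD1* by that measure (background 34.8% and 33%). The median log2 fold change of the 30 was -0.33 in *KD1*, -0.19 in *KD2* and 0.59 for *KD2* against *KD1*, beside -0.03, 0.01 and 0.02 over all genes tested. These counts include *Rspo3*, *Rnf43* and *Dkk3*, 3 of the 30 that passed the filter on low counts through 1 line alone, *KD2* for *Rspo3* and *Dkk3* and *KD1* for *Rnf43*, so that being tested already favoured a difference. The *KD1* and *KD2* comparisons share the *WT* cultures, and the *KD2* against *KD1* comparison shares the *KD* cultures with both.

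**Figure D1:**
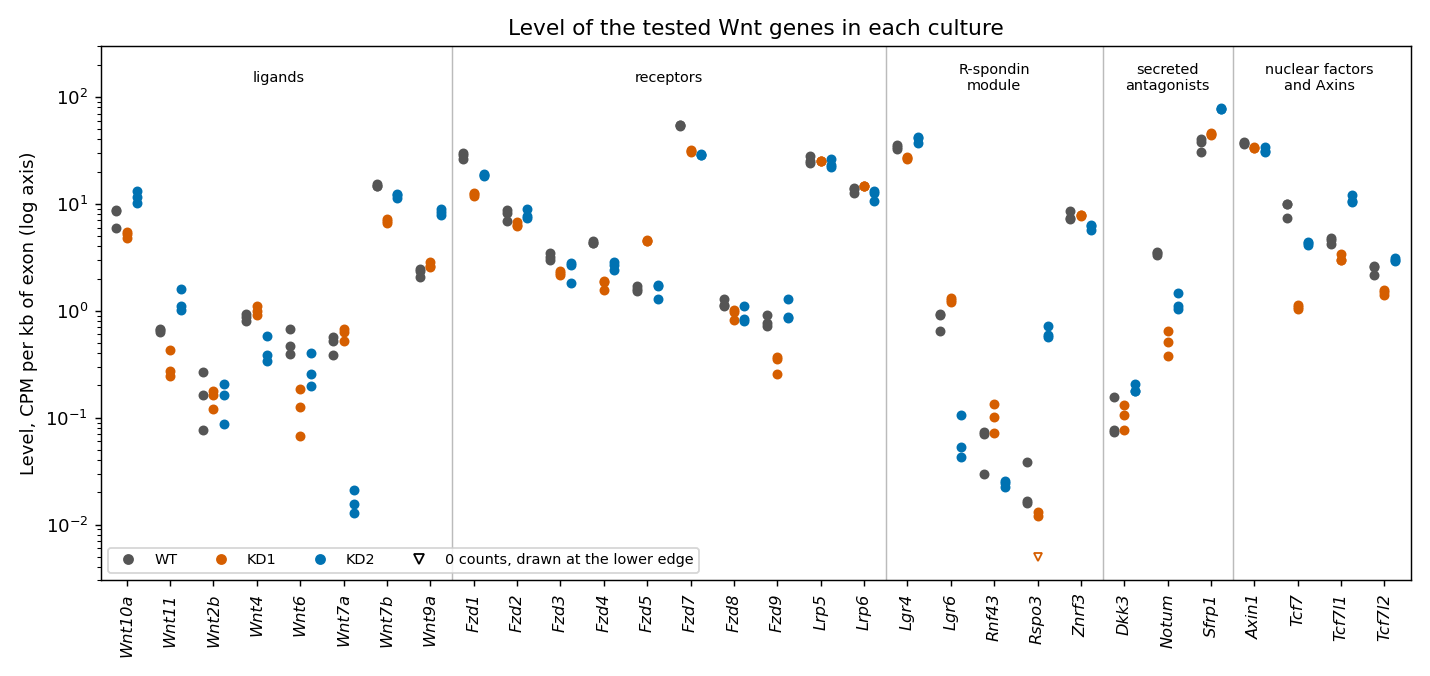
Level of the 30 tested genes in each of the 9 cultures, in CPM per kb of annotated exon on a log axis, grouped by role, with 1 point per culture in grey (*WT*), orange (*KD1*) and blue (*KD2*) and an open triangle for a culture with 0 counts. The 3 *KD2* points of *Wnt7a* and *Lgr6* lie below all other points of these genes, those of *Rspo3* lie above, and the *KD1* points of *Tcf7* and *Notum* lie below those of both other lines.

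Among the ligands, 8 of 19 could be tested. Per kb of exon, which allows levels of different genes to be compared, *Wnt7b* (14.8 CPM per kb in *WT*), *Wnt10a* (7.76) and *Wnt9a* (2.28) stood highest in parental cells, and the other tested ligands were under 1 CPM per kb. The ligands called in *KD1* were *Wnt6*, *Wnt7b* and *Wnt11*, all 3 down. This was 0% up and 37.5% down of those tested, beside 9.34% and 7.49% of all genes. Those called in *KD2* were *Wnt9a*, up, and *Wnt4* and *Wnt7a*, both down, 12.5% and 25% beside 14.5% and 6.71%.

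*Wnt7b*, a canonical ligand made by luminal and ductal epithelium (chromosome 15, 85535437 to 85582473, minus strand of GRCm38), stood at 74.5, 72.1 and 71.4 CPM in *WT*, 34.2, 32.8 and 35.2 CPM in *KD1* and 59.4, 55.96 and 60.1 CPM in *KD2*. The *KD1* cultures were 2.13-fold below *WT* and the groups did not overlap (log2 fold change -1.09 ± 0.06, adjusted p = 1.7e-09), while *KD2* fell less (log2 fold change -0.31 ± 0.06, adjusted p = 0.00026). In such bulk RNA, fewer cells making a transcript and less of it per cell cannot be told apart. A transcript on the opposite strand, *AU022754*, overlaps an exon of *Wnt7b* and had 16, 16 and 9 counts in *WT*, 1, 3 and 6 in *KD1* and 15, 22 and 15 in *KD2*. Its level fell in *KD1* as well (log2 fold change -2.24 ± 0.46, adjusted p = 9e-04), and with no strand setting given in the sources used here, reads of the pair cannot be told apart where they overlap.

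*Wnt9a*, a ligand known from joint and blood development (chromosome 11, 59306928 to 59333552, plus strand), stood at 6.86, 8.12 and 7.81 CPM in *WT*, 8.68, 9.52 and 8.55 CPM in *KD1* and 26.4, 28.0 and 29.8 CPM in *KD2*. Every *KD2* culture was above every other culture, by 3.68-fold against *WT* (log2 fold change 1.88 ± 0.09, adjusted p = 6.6e-10) and 3.15-fold against *KD1* (log2 fold change 1.65 ± 0.09, adjusted p = 8.3e-10). The difference in *KD1* did not pass the test (log2 fold change 0.23 ± 0.10, adjusted p = 0.063), though it did under 5 alternatives. *Wnt10a*, a canonical ligand of skin, tooth and mammary epithelium (chromosome 1, 74791516 to 74804179, plus strand), stood at 14.8, 21.4 and 21.2 CPM in *WT*, 12.8, 13.6 and 11.8 CPM in *KD1* and 28.4, 25.1 and 32.4 CPM in *KD2*. It moved in opposite directions in the edited lines, falling in *KD1* (log2 fold change -0.59 ± 0.13, adjusted p = 0.0019) and rising in *KD2* (log2 fold change 0.57 ± 0.13, adjusted p = 0.0013), and was called higher in *KD2* than in *KD1* (log2 fold change 1.16 ± 0.13, adjusted p = 2.5e-06).

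*Wnt7a* lies on chromosome 6, 91363981 to 91411363, minus strand. It was read at 35, 41 and 25 counts in *WT*, 54, 55 and 41 in *KD1* and 1, 2 and 1 in *KD2*, so that *KD2* retained 1 or 2 reads a culture. The *KD2* group was at or under the floor of 3 counts a library, and the ratio of counts was 29.2-fold lower than *WT* (95% counting interval 11.1 to 109) and 36.4-fold lower than *KD1* (13.9 to 135), intervals that cover counting error only. The edgeR test gave an adjusted p of 1.1e-07 against *WT* and 2.3e-08 against *KD1*, and *KD1* did not differ detectably from *WT* (log2 fold change 0.32 ± 0.20, adjusted p = 0.18). *Wnt7a*, a close relative of *Wnt7b*, is known for patterning the female reproductive tract.

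*Wnt4*, the ligand that acts downstream of progesterone in the mammary gland (chromosome 4, 137277489 to 137299726, plus strand), stood at 3.64, 3.40 and 3.91 CPM in *WT*, 4.13, 3.85 and 4.60 CPM in *KD1* and 1.62, 1.43 and 2.41 CPM in *KD2*. All *KD2* cultures were below the others (log2 fold change -1.03 ± 0.19, adjusted p = 0.00023), and *KD1* was not distinguishable from *WT* (log2 fold change 0.20 ± 0.17, adjusted p = 0.31). This call lay close to the fold limit: the log2 fold change was -0.955 without culture 3 of *WT*, -0.963 without culture 1 and -0.866 without culture 2 of *KD2*, -0.921 with library size alone and -0.961 with at least 10 counts in every culture. Adjusted p-values lay between 7.5e-08 and 0.0019 over all alternatives.

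*Wnt11*, a ligand of the beta-catenin-independent branch (chromosome 7, 98835112 to 98855195, plus strand), stood at 2.77, 2.60 and 2.73 CPM in *WT*, 1.77, 1.02 and 1.13 CPM in *KD1* and 4.16, 4.59 and 6.59 CPM in *KD2*. It fell in *KD1* (log2 fold change -1.03 ± 0.24, adjusted p = 0.0023) and rose in *KD2* (log2 fold change 0.91 ± 0.20, adjusted p = 0.0013), and the edited lines differed by 3.84-fold (log2 fold change 1.94 ± 0.22, adjusted p = 2.8e-06). The call in *KD1* was lost by the fold limit without culture 3 of *WT* (log2 fold change -0.998) or culture 2 (-0.878) or 3 (-0.931) of *KD1*, in the fit of 6 cultures (-0.991) and with at least 10 counts in every culture (-0.996). Adjusted p-values lay between 4.3e-06 and 0.013 over the alternatives.

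*Wnt6*, expressed in surface epithelia (chromosome 1, 74771892 to 74785322, plus strand), had 17, 37 and 21 counts in *WT*, 4, 7 and 10 in *KD1* and 14, 13 and 18 in *KD2*. *KD1* was 4.15-fold below *WT*, which was a call (log2 fold change -2.05 ± 0.38, adjusted p = 0.00037). The fall in *KD2* did not pass the fold limit (log2 fold change -0.92 ± 0.33, adjusted p = 0.024), and *KD2* overlapped *WT*. The test of this fall was lost with DESeq2 (adjusted p = 0.063), without culture 1 (0.065) or 2 (0.12) of *KD2* and without culture 2 of *WT* (0.16). It became a call without culture 3 of *KD2* (log2 fold change -1.18) or culture 1 of *WT* (-1.07). The difference between the edited lines (log2 fold change 1.14 ± 0.42, adjusted p = 0.028) rested on few reads, and its adjusted p was 0.12 without culture 1 and 0.064 without culture 2 of *KD1* and 0.096 without culture 3 of *KD2*, within 0.015 to 0.12 over the alternatives. *Wnt2b*, the eighth tested ligand, passed no test, with 22, 8 and 14 counts in *WT*, 20, 13 and 17 in *KD1* and 9, 26 and 14 in *KD2*.

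The remaining 11 ligands were too low to test. *Wnt1*, the first mammary oncogene found by viral insertion, had 0, 0 and 1 counts in *WT*, 0, 0 and 1 in *KD1* and 5, 15 and 10 in *KD2*, and its neighbour *Wnt10b* had 5, 5 and 4 counts in *WT*, 6, 1 and 3 in *KD1* and 9, 15 and 13 in *KD2*. In both genes each *KD2* culture was above every *WT* and *KD1* culture. *Wnt16* had 3, 1 and 1 counts in *WT*, 0, 3 and 2 in *KD1* and 5, 12 and 6 in *KD2*, with *KD2* again highest. For *Wnt1* the ratio of counts in *KD2* to *WT* was 26.0 with a counting interval of 4.32 to 1059, and for *Wnt16* it was 3.98 (1.48 to 13.4). *Wnt2*, *Wnt3*, *Wnt3a*, *Wnt5a*, *Wnt5b*, *Wnt8a*, *Wnt8b* and *Wnt9b* reached at most 5 counts in any culture.

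Of the 11 receptors and co-receptors, 10 could be tested. In *KD1* *Fzd5* was called up and *Fzd1*, *Fzd4* and *Fzd9* down, 10% and 30% of those tested beside 9.34% and 7.49% of all genes. In *KD2* 0 receptors were called either way, beside 14.5% and 6.71% of all genes, and 5 of the 10 fell by adjusted p, beside 33.3%. The most abundant of the Frizzleds described here, *Fzd7*, which is known in basal mammary cells (chromosome 1, 59482424 to 59486955, plus strand), stood at 247, 249 and 245 CPM in *WT*, 143, 144 and 139.5 CPM in *KD1* and 134, 131 and 129.9 CPM in *KD2*. It fell in both lines to 1.74-fold below *WT* in *KD1* (log2 fold change -0.80 ± 0.05, adjusted p = 8.3e-09) and 1.88-fold below in *KD2* (log2 fold change -0.91 ± 0.05, adjusted p = 2.6e-09), short of the fold limit, and with no overlap between edited and parental cultures. The edited lines did not differ detectably (log2 fold change -0.11 ± 0.05, adjusted p = 0.064), although the adjusted p was 0.016 with DESeq2, 0.045 with median-of-ratios factors and 0.036 without culture 3 of *KD2*.

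*Fzd1* (chromosome 5, 4753839 to 4758035, minus strand) stood at 109.8, 126 and 120.1 CPM in *WT*, 49.6, 51.5 and 53.5 CPM in *KD1* and 78.7, 76.1 and 80.1 CPM in *KD2*, with *KD1* lowest and *KD2* between. The fall was a call in *KD1* (log2 fold change -1.20 ± 0.06, adjusted p = 1.5e-09) and smaller in *KD2* (log2 fold change -0.60 ± 0.06, adjusted p = 1.5e-06). *Fzd4*, the receptor for Norrin as well as for Wnts (chromosome 7, 89404355 to 89413134, plus strand), followed the same order, at 30.0, 29.0 and 28.8 CPM in *WT*, 10.5, 12.4 and 12.7 CPM in *KD1* and 19.4, 17.9 and 16.3 CPM in *KD2*. Here too the fall was a call in *KD1* (log2 fold change -1.30 ± 0.09, adjusted p = 2e-08) and did not reach the fold limit in *KD2* (log2 fold change -0.71 ± 0.09, adjusted p = 5.8e-06).

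*Fzd5* (chromosome 1, 64730558 to 64737751, minus strand), a receptor known from intestinal and eye development, was the one receptor called higher in *KD1*. It stood at 10.96, 11.8 and 10.6 CPM in *WT*, 31.2, 31.0 and 31.6 CPM in *KD1* and 11.7, 12.1 and 8.95 CPM in *KD2*. The *KD1* cultures were 2.81-fold above *WT* (log2 fold change 1.49 ± 0.10, adjusted p = 1.5e-08), and *KD2* overlapped *WT* (log2 fold change -0.02 ± 0.11, adjusted p = 0.89). The edited lines differed (log2 fold change -1.50 ± 0.10, adjusted p = 7.5e-09). A transcript on the opposite strand, *Gm38058*, shares 16.4% of the 50-base windows of *Fzd5* and was read at 1 count in 1 culture and 0 in the others.

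*Fzd9* (chromosome 5, 135248938 to 135251230, minus strand) was low, at 32, 52 and 36 counts in *WT*, 23, 15 and 20 in *KD1* and 49, 60 and 60 in *KD2*. *KD1* was lowest, which was a call (log2 fold change -1.29 ± 0.24, adjusted p = 0.00044), and the edited lines differed (log2 fold change 1.60 ± 0.23, adjusted p = 3e-05), while *KD2* overlapped *WT* (log2 fold change 0.31 ± 0.21, adjusted p = 0.2). *Fzd2* fell in *KD1* (log2 fold change -0.31 ± 0.09, adjusted p = 0.012) and *Fzd3* in both lines (-0.51 ± 0.12 and -0.40 ± 0.12, adjusted p = 0.0023 for *KD1* and 0.009 for *KD2*). *Fzd3* lies on chromosome 14, where the median log2 fold change of the 494 genes tested was -0.47 in *KD2*. *Fzd8* fell in *KD2* (log2 fold change -0.38 ± 0.14, adjusted p = 0.027) and did not pass the test in *KD1* (log2 fold change -0.34 ± 0.14, adjusted p = 0.054).

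Neither co-receptor passed the test against *WT* in the fit of all 9 cultures. *Lrp5* stood at 233, 271 and 246 CPM in *WT*, 247, 243 and 243 CPM in *KD1* and 224, 216 and 257 CPM in *KD2*, with overlapping groups and no test passed (log2 fold change -0.03 ± 0.07, adjusted p = 0.74, and in *KD2* -0.10 ± 0.07, adjusted p = 0.23), though *Lrp5* passed in *KD2* without culture 3 of that line (adjusted p = 0.016). *Lrp6* stood at 194, 190.1 and 174 CPM in *WT*, 201, 200 and 203 CPM in *KD1* and 180.3, 174 and 146 CPM in *KD2*. It did not differ detectably from *WT* in *KD1* (log2 fold change 0.11 ± 0.07, adjusted p = 0.21) or *KD2* (log2 fold change -0.16 ± 0.07, adjusted p = 0.078), and was lower in *KD2* than in *KD1* (log2 fold change -0.27 ± 0.07, adjusted p = 0.0053). These *Lrp6* results depended on the setting: *KD1* passed with only 6 cultures (adjusted p = 0.011) and without culture 3 of *KD2* (0.0092), *KD2* passed with no filter beyond 1 count (0.025) and without culture 1 of *KD2* (0.032), and the difference between the lines was lost with library size alone (0.096).

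In the R-spondin module 5 of 9 genes could be tested, with 0 called in *KD1*, beside 9.34% up and 7.49% down of all genes. In *KD2* *Rspo3* was called up and *Lgr6* and *Rnf43* down, 20% and 40% of those tested beside 14.5% and 6.71%. These calls include *Rspo3* and *Rnf43*, which each passed the filter on low counts through 1 line alone. *Rspo3*, a secreted amplifier of Wnt signals (chromosome 10, 29452416 to 29535867, minus strand), had 1, 3 and 1 counts in *WT*, 1, 0 and 1 in *KD1* and 43, 55 and 45 in *KD2*. Both other lines were at or under the floor of 3 counts a library, so no fold is given between them, and *KD2* was higher by a ratio of counts of 24.8 against *WT* (95% counting interval 10.4 to 77.4) and 73.6 against *KD1* (20.01 to 613.6). Since *Rspo3* passed the filter on low counts only through *KD2*, being tested already favoured its call, and no p-value is given for it. *Gm48159*, on the opposite strand, shares 11.6% of its windows and was at 0 counts in every culture. *Rspo1*, *Rspo2* and *Rspo4* reached at most 4 counts.

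*Lgr6* (chromosome 1, 134983301 to 135105276, minus strand), a receptor for R-spondins known as a marker of progenitors in skin and mammary gland, had 87, 161 and 129 counts in *WT*, 244, 222 and 203 in *KD1* and 9, 22 and 6 in *KD2*. The *KD2* cultures were 11.7-fold below *WT* (log2 fold change -3.54 ± 0.25, adjusted p = 2.6e-08) and 17.5-fold below *KD1* (log2 fold change -4.13 ± 0.23, adjusted p = 2e-09), with no overlap, and *KD1* was 1.50-fold above *WT* (log2 fold change 0.58 ± 0.16, adjusted p = 0.007). Thus *Rspo3* and *Lgr6* moved in opposite directions in the same *KD2* cultures. The dominant receptor of the module was *Lgr4*, at 33.8 CPM per kb in *WT* against 0.837 for *Lgr6*. *Lgr4* stood at 199, 207 and 191 CPM in *WT*, 159, 162 and 156 CPM in *KD1* and 244, 248 and 219 CPM in *KD2*, which was a fall in *KD1* (log2 fold change -0.32 ± 0.06, adjusted p = 0.00043) and a rise in *KD2* (log2 fold change 0.25 ± 0.06, adjusted p = 0.002). *Lgr5*, the intestinal stem cell marker, had 0 to 4 counts.

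*Rnf43* and *Znrf3* encode the ubiquitin ligases that clear Frizzled from the surface. *Znrf3* carried most of the transcripts of the pair, 7.70 CPM per kb in *WT* against 0.0578 for *Rnf43*, and fell in *KD2* (log2 fold change -0.34 ± 0.07, adjusted p = 0.00091) with no detected difference in *KD1* (log2 fold change 0.02 ± 0.07, adjusted p = 0.85). *Rnf43* had 9, 12 and 4 counts in *WT*, 18, 12 and 22 in *KD1* and 4, 5 and 3 in *KD2*. By CPM the *KD2* cultures were lowest. *Rnf43* passed the filter on low counts only through *KD1*, so no test is given for *KD2* against *KD1*. The *WT* and *KD2* cultures alone did not pass that filter, and in the fit of only those 6 cultures *Rnf43* was not called. In the fit of all 9 cultures *KD2* was called lower than *WT* (log2 fold change -1.24 ± 0.48, adjusted p = 0.034). That call was lost with DESeq2 (adjusted p = 0.074), with library size alone (0.051), without culture 1 (0.095) or 2 (0.15) of *WT*, and without culture 1 (0.069), 2 (0.072) or 3 (0.065) of *KD2*, within 0.013 to 0.15 over the alternatives.

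Among the secreted antagonists, 3 of 10 could be tested. *Notum* was called down in both lines and *Sfrp1* up in *KD2*. In *KD1* 0% of the 3 tested were called up and 33.3% down, beside 9.34% and 7.49% of all genes. In *KD2* 33.3% were called each way, beside 14.5% and 6.71%. *Notum*, the extracellular enzyme that removes the lipid from Wnts and is itself a known beta-catenin target (chromosome 11, 120653788 to 120661175, minus strand), stood at 8.55, 8.36 and 8.06 CPM in *WT*, 1.22, 0.904 and 1.57 CPM in *KD1* and 2.67, 2.50 and 3.49 CPM in *KD2*. The groups did not overlap: *KD1* was 6.75-fold below *WT* (log2 fold change -2.75 ± 0.18, adjusted p = 1.3e-08), *KD2* was 2.92-fold below (log2 fold change -1.54 ± 0.16, adjusted p = 1.2e-06), and *KD2* stood above *KD1* (log2 fold change 1.21 ± 0.20, adjusted p = 1e-04). The opposite-strand transcripts *Notumos* and *Myadml2os* share 29.5% of its windows. *Notumos* had 7, 9 and 8 counts in *WT*, 2, 1 and 2 in *KD1* and 1, 6 and 5 in *KD2*, and *Myadml2os* had at most 6 counts.

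*Sfrp1*, a Frizzled-like decoy that binds Wnts outside the cell (chromosome 8, 23411502 to 23449632, plus strand), was the most abundant antagonist, at 134, 178 and 164 CPM in *WT*, 199, 197 and 193 CPM in *KD1* and 346, 338 and 334 CPM in *KD2*. Every *KD2* culture was above all others, a call against *WT* (log2 fold change 1.10 ± 0.08, adjusted p = 5e-08) that missed the fold limit without culture 1 of *WT* (log2 fold change 0.985, edgeR adjusted p = 5.6e-08). *KD1* rose by less (log2 fold change 0.31 ± 0.08, adjusted p = 0.0055). *Dkk3*, a member of the Dickkopf family, had 5, 13 and 5 counts in *WT*, 7, 9 and 11 in *KD1* and 17, 18 and 12 in *KD2*. It passed the filter on low counts only through *KD2*, so no test is given for it. *Dkk1*, *Dkk2*, *Dkk4*, *Sfrp2*, *Sfrp4* and *Sfrp5* had at most 2 counts in any culture. *Wif1* had 0, 0 and 0 counts in *WT*, 0, 0 and 0 in *KD1* and 2, 2 and 2 in *KD2*.

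Of the nuclear factors and Axins, 4 of 6 could be tested. *Tcf7* was called down in both lines and *Tcf7l1* up in *KD2*. Of the 4 tested, 0% were called up and 25% down in *KD1*, beside 9.34% and 7.49% of all genes. In *KD2* 25% were called each way, beside 14.5% and 6.71%. All 3 tested TCF factors stood above *KD1* in *KD2*, each a call, which was 75% of the 4 tested beside 14.7% of all genes. *Tcf7*, which encodes TCF1 and is a known beta-catenin target as well as a partner of it (chromosome 11, 52252371 to 52283014, minus strand), stood at 19.5, 26.3 and 26.0 CPM in *WT*, 2.99, 2.83 and 2.70 CPM in *KD1* and 11.5, 10.8 and 11.3 CPM in *KD2*. *KD1* was 8.42-fold below *WT* (log2 fold change -3.07 ± 0.13, adjusted p = 1e-10) and *KD2* 2.14-fold below (log2 fold change -1.10 ± 0.11, adjusted p = 7.8e-07), with no overlap between the 3 lines. The *KD2* call became a log2 fold change of -0.99 with library size alone.

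*Tcf7l1* encodes TCF3, which is known mainly as a repressor (chromosome 6, 72626378 to 72789254, minus strand), and stood at 16.7, 18.04 and 18.8 CPM in *WT*, 13.2, 11.7 and 11.8 CPM in *KD1* and 41.7, 40.4 and 47.5 CPM in *KD2*. It fell in *KD1* (log2 fold change -0.54 ± 0.09, adjusted p = 0.00015) and was called higher in *KD2* against *WT* (log2 fold change 1.27 ± 0.08, adjusted p = 1.3e-08) and *KD1* (log2 fold change 1.82 ± 0.09, adjusted p = 2.5e-10). *Tcf7l2*, encoding TCF4 (chromosome 19, 55741820 to 55933654, plus strand), stood at 22.5, 23.0 and 18.9 CPM in *WT*, 13.1, 13.8 and 12.3 CPM in *KD1* and 25.8, 27.5 and 26.5 CPM in *KD2*. It fell in *KD1* (log2 fold change -0.72 ± 0.09, adjusted p = 8.2e-06), rose in *KD2* (log2 fold change 0.31 ± 0.08, adjusted p = 0.0048) and was called higher in *KD2* than in *KD1* (log2 fold change 1.03 ± 0.09, adjusted p = 1.1e-07), a call that was lost by the fold limit without culture 3 of *KD1* (log2 fold change 0.975) and with no filter beyond 1 count (0.986). *Tcf7* was thus the highest of the 3 in *WT* per kb of exon (9.12, against 4.54 for *Tcf7l1* and 2.45 for *Tcf7l2*), and *Tcf7l1* the highest in *KD1* (3.12, against 1.08 for *Tcf7*) and in *KD2* (11.01, against 4.27).

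*Axin1*, the scaffold of the beta-catenin destruction complex, stood at 143, 146 and 139.6 CPM in *WT*, 128, 126 and 132 CPM in *KD1* and 117, 119.5 and 130.2 CPM in *KD2*. It fell by small amounts in *KD2* (log2 fold change -0.23 ± 0.06, adjusted p = 0.0034, and 0.099 with library size alone) and in *KD1* (log2 fold change -0.15 ± 0.06, adjusted p = 0.037), where the adjusted p lay between 0.0057 and 0.17 over the alternatives and exceeded 0.05 in 11 of 16 alternatives, reaching 0.17 without culture 2 of *WT*. *Axin2*, whose window is printed above, had 3, 6 and 3 counts in *WT*, 3, 4 and 4 in *KD1* and 0, 0 and 0 in *KD2*, so it was read in every *WT* and *KD1* culture and in 0 *KD2* cultures. Cultures 1 and 3 of *WT* were themselves at the floor of 3 counts a library, so no fold is given. *Lef1* had 1, 0 and 1 counts in *WT*, 3, 2 and 2 in *KD1* and 0, 0 and 1 in *KD2*.

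**Figure D2:**
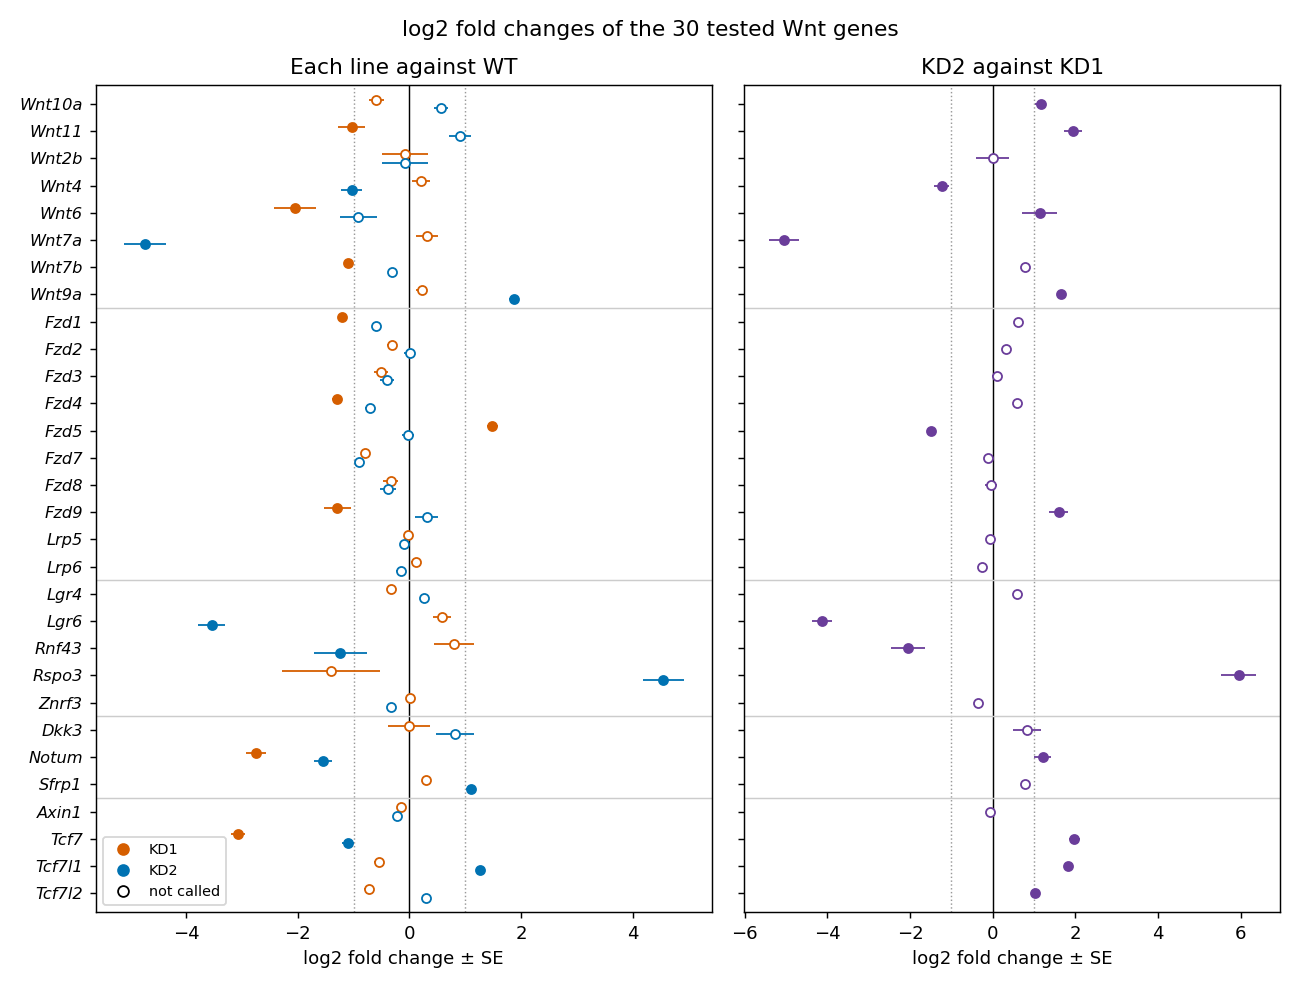
log2 fold change (points) ± standard error (bars) of the 30 tested genes, for *KD1* (orange) and *KD2* (blue) against *WT* on the left and *KD2* against *KD1* on the right, with filled points for called genes and dotted lines at a log2 fold change of 1 either way. *Notum* and *Tcf7* are filled and left of 0 for both lines, and in the panel of *KD2* against *KD1* (purple) 10 filled points lie right of 0 and 5 left of it. Fitted values of *Rspo3* and *Wnt7a*, for which a group was at or under 3 counts a library, are not bounds.

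Summed over each role, in CPM per kb of exon, receptors stood at 141 ± 5.06 (SD, n = 3) in *WT*, 99.7 ± 0.502 in *KD1* and 100.4 ± 1.66 in *KD2*, so the edited lines held about the same total below every *WT* culture. Ligands stood at 27.7 ± 1.34, 17.1 ± 0.199 and 34.6 ± 2.70, lowest in *KD1* and highest in *KD2* with no overlap. Antagonists stood at 39.9 ± 5.04, 45.6 ± 0.545 and 79.1 ± 1.23. The R-spondin module stood at 42.5 ± 1.66, 36.2 ± 0.419 and 47.2 ± 2.96, and the nuclear factors and Axins at 53.4 ± 1.88, 39.3 ± 0.574 and 50.2 ± 2.81. These sums follow a few abundant genes and were not tested.

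The make-up within roles differed between lines as well. *Wnt7b* was 53.7% ± 3.83 of the ligand sum in *WT*, 40.7% ± 1.92 in *KD1* and 34.6% ± 1.76 in *KD2*, while *Wnt9a* was 8.24% ± 0.322, 15.7% ± 0.786 and 24.4% ± 1.31. Among receptors *Fzd7* was 38.6% ± 1.151 in *WT*, 31.4% ± 0.435 in *KD1* and 28.9% ± 0.644 in *KD2*. *Fzd5* was 1.14% ± 0.0404 of the receptor sum in *WT* and 4.54% ± 0.0637 in *KD1*. *Sfrp1* was 90.9% ± 1.40 of the antagonist sum in *WT*, 98.5% ± 0.452 in *KD1* and 98.1% ± 0.322 in *KD2*.

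**Figure D3:**
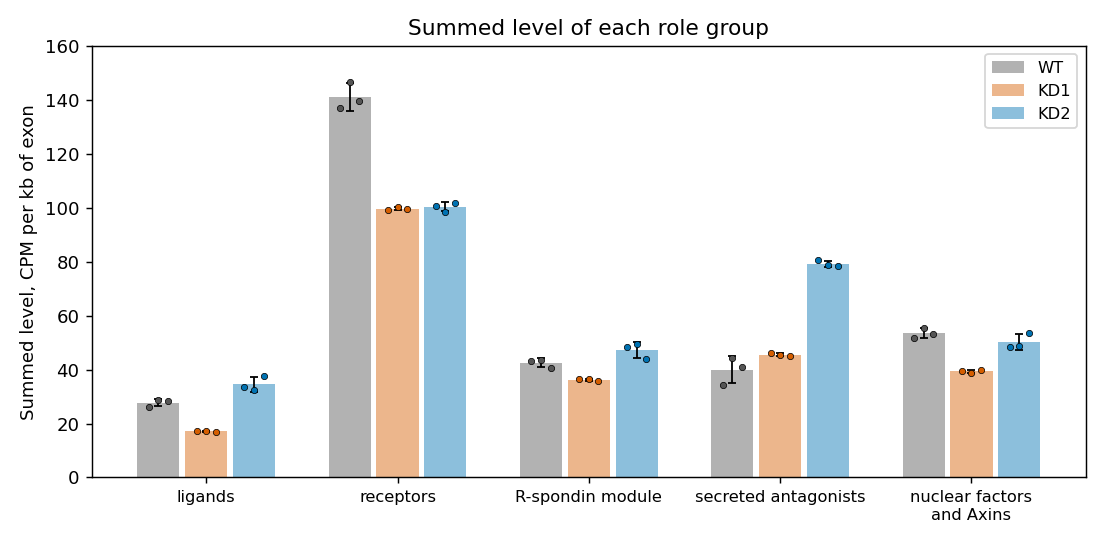
Summed level of each role group in CPM per kb of exon, with bars for the mean of 3 cultures, error bars for the SD and points for single cultures. Receptors are at 141 in *WT* and near 100 in both edited lines, ligands are lowest in *KD1* (17.1), and antagonists reach 79.1 in *KD2*.

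Other genes of the pathway were taken from lists of extracellular and membrane proteins, of the beta-catenin machinery and of genes described as beta-catenin targets. Among 17 tested extracellular and membrane genes, *KD1* had 3 calls up and 4 down (17.6% and 23.5%, beside 9.34% and 7.49% of all genes), and *KD2* had 4 up and 2 down (23.5% and 11.8%, beside 14.5% and 6.71%). Among 33 tested genes of the machinery, *KD1* had 1 call up and 3 down (3.03% and 9.09%), and *KD2* had 4 up and 2 down (12.1% and 6.06%), close to or below the shares of all genes. Among 17 tested target genes, *KD1* had 5 calls up and 3 down (29.4% and 17.6%), and *KD2* had 3 up and 2 down (17.6% and 11.8%), beside the same shares of all genes. The median log2 fold changes of the 3 lists were 0.09, -0.06 and -0.21 in *KD1* and 0.17, -0.13 and -0.18 in *KD2*. The counts of calls include *Sostdc1*, lower in both lines, and *Dact1*, higher in *KD2*. Each passed the filter on low counts through 1 line alone, so that being tested already favoured a difference. *Apcdd1*, called lower in *KD1*, is counted in both the extracellular and the target list.

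*Sostdc1*, a secreted antagonist of Wnt and BMP signals, had 442, 791 and 584 counts in *WT*, 2, 3 and 1 in *KD1* and 2, 1 and 0 in *KD2*. Both edited lines were at or under 3 counts a library, and the ratio of counts was 360.2-fold lower in *KD1* (95% counting interval 165 to 983) and 700-fold lower in *KD2* (239 to 3396). *Sostdc1* passed the filter on low counts only through *WT*, and no test is given for it. *Nkd2*, an inhibitor that binds Dishevelled, averaged 398 CPM in *WT*, and fell to 18.5 CPM in *KD1* (log2 fold change -4.43 ± 0.08, adjusted p = 3.1e-14) and to 66.7 CPM in *KD2* (log2 fold change -2.58 ± 0.07, adjusted p = 3.3e-12). *Nkd2* lies on chromosome 13, where the median of the 590 genes tested was -0.66 in *KD2*.

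*Ror1*, a receptor kinase for Wnts of the planar polarity branch, averaged 0.678 CPM in *WT* and rose in both lines, to 2.34 CPM in *KD1* (log2 fold change 1.78 ± 0.22, adjusted p = 8.2e-06) and to 17.2 CPM in *KD2* (log2 fold change 4.66 ± 0.17, adjusted p = 5e-11). *Gpc3*, a glypican on the X chromosome, rose likewise (log2 fold change 1.42 ± 0.36 and 2.88 ± 0.30, adjusted p = 0.0039 for *KD1* and 1.5e-06 for *KD2*). *Reck*, a co-receptor for WNT7A and WNT7B, fell in *KD1* (log2 fold change -1.57 ± 0.19, adjusted p = 7.3e-06) and rose in *KD2* (log2 fold change 2.22 ± 0.13, adjusted p = 5.8e-09). *Apc2*, a relative of the tumour suppressor *Apc*, rose in both (2.56 ± 0.22 and 2.77 ± 0.22, adjusted p = 2.3e-07 and 7.7e-08). The co-repressor gene *Tle2* fell in *KD1* (-3.19 ± 0.44, adjusted p = 2.7e-05) and rose in *KD2* (1.90 ± 0.25, adjusted p = 1.3e-05). *Dact1*, a regulator of Dishevelled, had 3, 3 and 6 counts in *WT*, 6, 4 and 6 in *KD1* and 33, 44 and 22 in *KD2*, and passed the filter on low counts only through *KD2*, so no test is given for it.

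Among the listed targets, *Procr*, a marker of a mammary stem cell population, averaged 3.65 CPM in *WT* and rose to 132.9 CPM in *KD1* (log2 fold change 5.17 ± 0.09, adjusted p = 3.1e-14) and to 16.1 CPM in *KD2* (log2 fold change 2.12 ± 0.10, adjusted p = 6.9e-10). *Ccn1* rose in both (1.59 ± 0.08 and 1.88 ± 0.08, adjusted p = 5.8e-10 and 1.9e-10). *Tnfrsf19* had 29, 41 and 41 counts in *WT*, 1, 0 and 2 in *KD1* and 87, 130 and 74 in *KD2*, a ratio of counts 44.0-fold lower in *KD1* than in *WT* (14.7 to 217), where the edgeR test gave an adjusted p of 1.5e-07, and a rise in *KD2* (log2 fold change 1.17 ± 0.19, adjusted p = 1e-04). *Efnb1* fell in both lines, past the fold limit in *KD2* (log2 fold change -1.90 ± 0.09, adjusted p = 9.2e-10) and not in *KD1* (log2 fold change -0.39 ± 0.09, adjusted p = 0.0016), and lies on the X chromosome, where the median of the 449 genes tested was -0.63 in *KD2*. The genes needed for Wnt export were outside this naming rule and were chosen after their values were seen: *Porcn*, which adds the lipid to Wnts and also lies on the X chromosome, was called lower in *KD1* (log2 fold change -1.04 ± 0.11, adjusted p = 2.4e-06) and *KD2* (log2 fold change -1.26 ± 0.11, adjusted p = 3.4e-07), and *Wls*, which carries Wnts to the surface, rose in *KD1* (log2 fold change 0.27 ± 0.06, adjusted p = 0.0022) and fell in *KD2* (log2 fold change -0.94 ± 0.06, adjusted p = 1.9e-08).

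**Figure D4:**
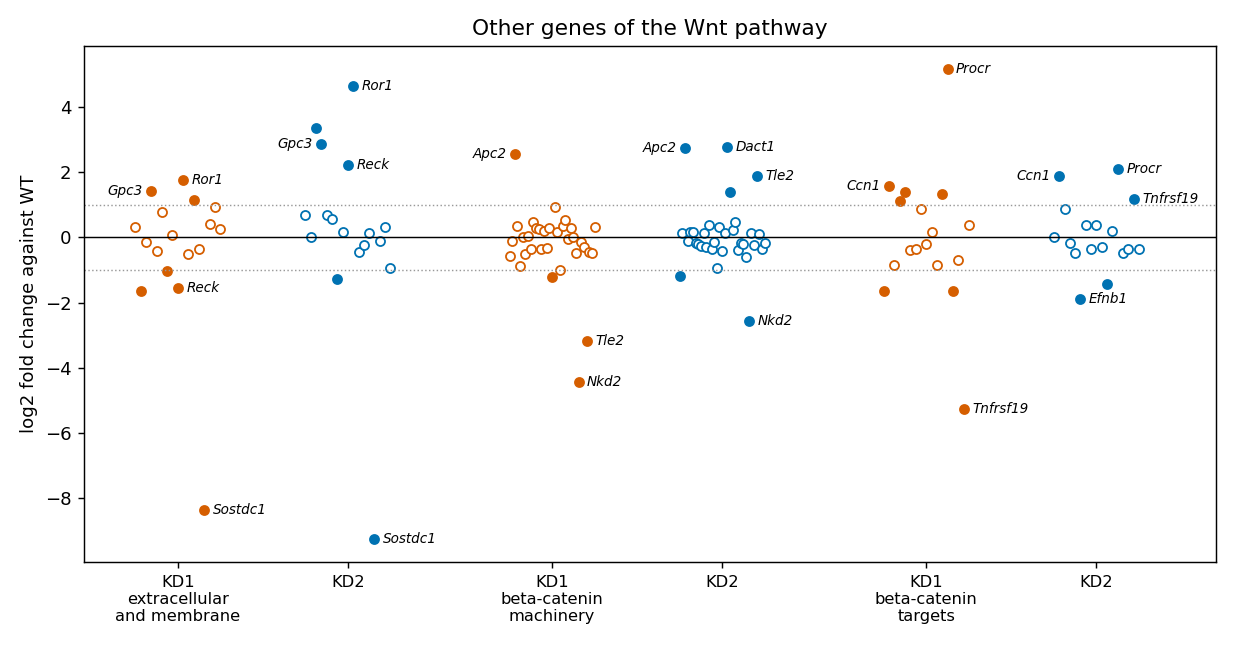
log2 fold change against *WT* of the other tested pathway genes in *KD1* (orange) and *KD2* (blue), 1 point per gene, in lists of 17 extracellular and membrane genes, 33 genes of the beta-catenin machinery and 17 listed targets, with filled points for called genes. Most of the machinery lies between the dotted lines at a log2 fold change of 1 either way, and *Sostdc1* (a fitted value, since both edited lines were at or under 3 counts a library) lies lowest in both lines.

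Some Wnt genes lie beside each other in the genome, and neighbours were compared. *Wnt6* and *Wnt10a* are 6193 bases apart on chromosome 1. In *KD1* both fell, whereas in *KD2* *Wnt6* fell and *Wnt10a* rose, with the values given above. The fall of *Wnt6* in *KD2* overlapped *WT* and lost the test under 4 alternatives. *Wnt1* and *Wnt10b* are 11706 bases apart on chromosome 15, and both had their highest counts in the 3 *KD2* cultures. *Wnt9a* and *Wnt3a* are 16175 bases apart on chromosome 11, and *Wnt3a* stayed at 0 or 1 count in each culture while *Wnt9a* rose in *KD2*. *Wnt3* and *Wnt9b*, 24328 bases apart on the same chromosome, had at most 1 count.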

How the data were processed

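RNA-seq of 9 HC11 cultures was analysed, grouped by the sample labels. The authors used fastp for trimming, HISAT2 for mapping to GRCm38 and featureCounts for counting over exons, and deposited whole-number counts per gene. Whether counting used strand is not given in the sources used here. The labels state that samples were flash frozen and the methods that they were not.

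The counts were tested with edgeR 4.0.16 in R 4.3.3 (quasi-likelihood test, TMM scaling, its filter on low counts, 1 fit of 9 cultures without a block) and adjusted by the Benjamini-Hochberg method over 15253 genes. Calls required more than a 2-fold change and an adjusted p under 0.05. CPM used TMM-scaled library sizes and are given per kb of the union of GENCODE exons where genes are compared. The floor was 3 counts a library, and counting intervals are at 95%.

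The genes and lists were chosen with earlier results of these data known. Values in every culture are given for genes called in any comparison, *Axin2*, *Lef1*, *Lrp5*, *Lrp6*, *Tcf7l1*, *Tcf7l2* and the gene with the highest level per length in each role in *WT*, and of each other list the 4 genes with the largest mean absolute log2 fold change over both lines are named. Values of *Wnt1*, *Wnt2b*, *Wnt10b*, *Wnt16*, *Wif1*, *Dkk3*, *Znrf3*, *Fzd2*, *Fzd3* and *Fzd8* fall outside that rule and were chosen after they were seen. Same-numbered cultures were not paired by the labels, and their deviations correlated at -0.075 to 0.11. The alternatives were DESeq2 1.42.0, median-of-ratios factors, library size alone, no filter beyond 1 count, at least 10 counts in every culture, only the 6 cultures compared, the replicate block, an adjusted p under 0.01 and leaving out each culture. Promoter windows were searched in Python 3.11.15. The authors' normalized values were not used.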

Additional observations from a re-analysis of the deposited data

Results flagged for a closer look

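By the direct edgeR test of *KD2* against *KD1*, 24 of the 30 tested genes had an adjusted p under 0.05, 17 above and 7 below *KD1*. The shares of all genes were 34.8% and 33%. Of the 30, 15 also passed the fold limit and so were called, and these are listed here. An effect of the edit and a difference between clones cannot be told apart. As log2 differences, *KD2* minus *KD1*, the called ligands were *Wnt9a* at 1.65, *Wnt10a* at 1.16, *Wnt11* at 1.94, *Wnt6* at 1.14, *Wnt4* at -1.24 and *Wnt7a* at -5.06. The called receptors were *Fzd9* at 1.60 and *Fzd5* at -1.50. In the R-spondin module *Rspo3* was at 5.95, *Lgr6* at -4.13 and *Rnf43* at -2.04. *Notum* was at 1.21, and the nuclear factors *Tcf7*, *Tcf7l1* and *Tcf7l2* were at 1.97, 1.82 and 1.03. The values of *Rspo3* and *Wnt7a* are fitted against a group at or under the floor and are not bounds. *Rspo3* passed the filter on low counts only through *KD2* and *Rnf43* only through *KD1*. For both, being tested already favoured a difference, and the 15 called genes include them. Adjusted p-values ran from 2.5e-10 for *Tcf7l1* to 0.028 for *Wnt6*. Against a background of 14.7% of all genes called higher and 8.58% called lower, 10 of these genes were higher in *KD2*, *Rspo3* among them, and 5 lower, *Rnf43* among them.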

How the results depend on the processing

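Of 1121 comparisons of a named value with an alternative, 1067 kept direction and side of the adjusted p limit, 27 lost the limit, 17 passed it and 10 changed sign. The counts of Wnt genes called in *KD2* against *WT* changed most. Library size alone, which moved the median of all genes to a log2 fold change of 0.12 in *KD2* and 0.14 between the lines, left 3 called lower in *KD2*, with *Rnf43*, *Tcf7* and *Wnt4* lost. With no filter beyond 1 count, 7 were called higher in *KD2*, *Wnt1*, *Wnt10b* and *Wnt16* being added, and *Axin2* was called lower. With at least 10 counts in every culture 2 were called lower in *KD2* against *WT* and 2 against *KD1*, since *Lgr6*, *Rnf43* and *Wnt7a* were then not tested and *Wnt4* missed the fold limit against *WT* (-0.961). Leaving out 1 culture gave 1 to 2 called higher in *KD1* (2 without culture 2 of *KD1*, which added *Rnf43*), 4 to 7 higher in *KD2* (7 without culture 1 of *KD2*) and 4 to 6 lower in *KD2*. Signs changed only for values that had not passed the test: with library size alone in *KD2* against *WT* *Fzd5* was at 0.093 and *Lrp5* at 0.01 (0.007), and in *KD2* against *KD1* *Axin1* was at 0.05, *Fzd7* at 0.02 (0.015) and *Lrp5* at 0.05 (0.054). *Fzd5* in *KD2* was at 0.05 (0.054) with at least 10 counts in every culture and between -0.10 and 0.12 with a culture left out, and *Lrp5* in *KD1* was at 0.01 (0.009) with only 6 cultures and between -0.079 and 0.052 with a culture left out, being positive without culture 2 of *WT*. The cause was not tested. A replicate block left all 6 numbers of calls as they were: 1 up and 8 down for *KD1*, 4 up and 6 down for *KD2*, and 10 up and 5 down between the lines. Only *Axin1* in *KD1* lost its adjusted p under the block (0.052). Genes at or under 3 counts in every culture could show no difference at this depth.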
